A study of Arabidopsis thaliana with 8 samples.

Results

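Cyclins and cyclin-dependent kinases (CDKs) of Arabidopsis thaliana were compared between flower buds and roots. The genes were chosen by symbol in the RefSeq gene table: every symbol that begins with CYCA, CYCB, CYCD, CYCH, CYCL, CYCP, CYCT or CDKA to CDKF followed by a number, without the meiotic cyclins TAM and SDS. This rule gave 47 genes, 38 cyclins and 9 kinases, of which 46 were among the 25383 loci with a probe on the array. No probe was matched to CYCD5;1, which was not analysed here, and no symbol of the CYCL, CDKA or CDKF classes met the rule. One probe stood for each gene, the one with the highest mean signal over the 8 arrays.

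A CDK is active only when bound to a cyclin, and the cyclins of a dividing cell are made and destroyed in turn. In plants, D-type cyclins link growth signals to entry into the cycle by releasing E2F factors from the retinoblastoma protein. A-type cyclins act mainly in S and G2 phase, and B-type cyclins together with the plant-specific B-type CDKs drive mitosis. H-type and T-type cyclins with CDKC and CDKD serve mainly transcription and the activation of other CDKs, CDKE is a kinase of the Mediator complex, and P-type cyclins are a family related to yeast cyclins of phosphate sensing. In a plant of this age cell division is concentrated in meristems and young organs, and most cells of a mature root no longer divide.

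All plants were of the Col-0 accession, 6 weeks old and raised in hydroponic culture, and the labels name no mutation and no treatment. The groups were 4 samples of flower buds and 4 samples of roots, and the tissue of 8 to 10 plants was pooled for each sample, so the p-values measure the spread between pools. Flower buds hold petals, stamens, carpels and meristematic tissue together, and whole roots hold tips and mature zones together. Fewer cells of a type and less RNA per cell therefore cannot be told apart in any value below.

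The labels were checked with marker genes. The 6 flower markers (SEP1, SEP2, CRC, VGD1, AHA9 and GRP17) were higher in buds and not well above background on any root array, and 3 of 3 markers of green tissue were higher in buds. Of 6 root markers, CASP1, EXPA7, NRT2.1 and RHD6 were higher in roots, whereas the radial patterning genes SHR (-0.43 ± 0.12) and SCR (-0.48 ± 0.12) were not called. The processed signal at the 75th percentile was 4149.2 to 4257.9 on bud arrays and 2217.5 to 3153.1 on root arrays, and 80.1% to 82.2% of probes in buds and 69.4% to 77.3% in roots were well above background. Arrays of 1 tissue correlated at 0.971 to 0.993 and arrays of different tissues at 0.474 to 0.522 (Pearson's r across genes, which are not independent replicates).

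Signals are given below as log2 values relative to the 75th percentile of their array, and differences as the flower bud value minus the root value with the standard error of the limma fit. Testing required a probe flagged as well above background by the scanner software on each of the 4 arrays of 1 tissue or the other, and a gene was called if its Benjamini-Hochberg adjusted p over all 22123 tested genes was under 0.05 and the difference was 2-fold or more. Probes differ in brightness, so no level is compared between genes.

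Of the 44 cyclins and CDKs tested, 25 were higher in flower buds, 2 were higher in roots and 17 were not called. The 27 calls made up 61.4% of the family, against 55.0% of all genes tested. Calls toward buds took 56.8% of the family and 30.2% of all genes, and calls toward roots took 4.55% of the family and 24.8% of all genes. The median difference was 1.22 in the family and 0.14 over all genes, and 38 of the 44 differences were positive. Counted by the adjusted p alone, 42 of the 44 differed, 37 toward buds and 5 toward roots, against 82.3% of all genes. The signals of the tissues did not overlap for 40 of the 44, against 79.3% of all genes. Of all called genes, 54.9% were higher in buds, and this share was 72.9% when the arrays were scaled on 4 reference genes (PP2AA3, YLS8, UBC21 and UBQ10). That scaling moved the median of all genes to 0.87 and gave 37 members called toward buds and 2 toward roots. Of all 22123 genes it called 10261 toward buds and 3807 toward roots. In the main fit the 4 reference genes were themselves lower in buds, at -0.98 to -0.43. All 4 passed the adjusted p alone and none was called.

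**Figure D1:**
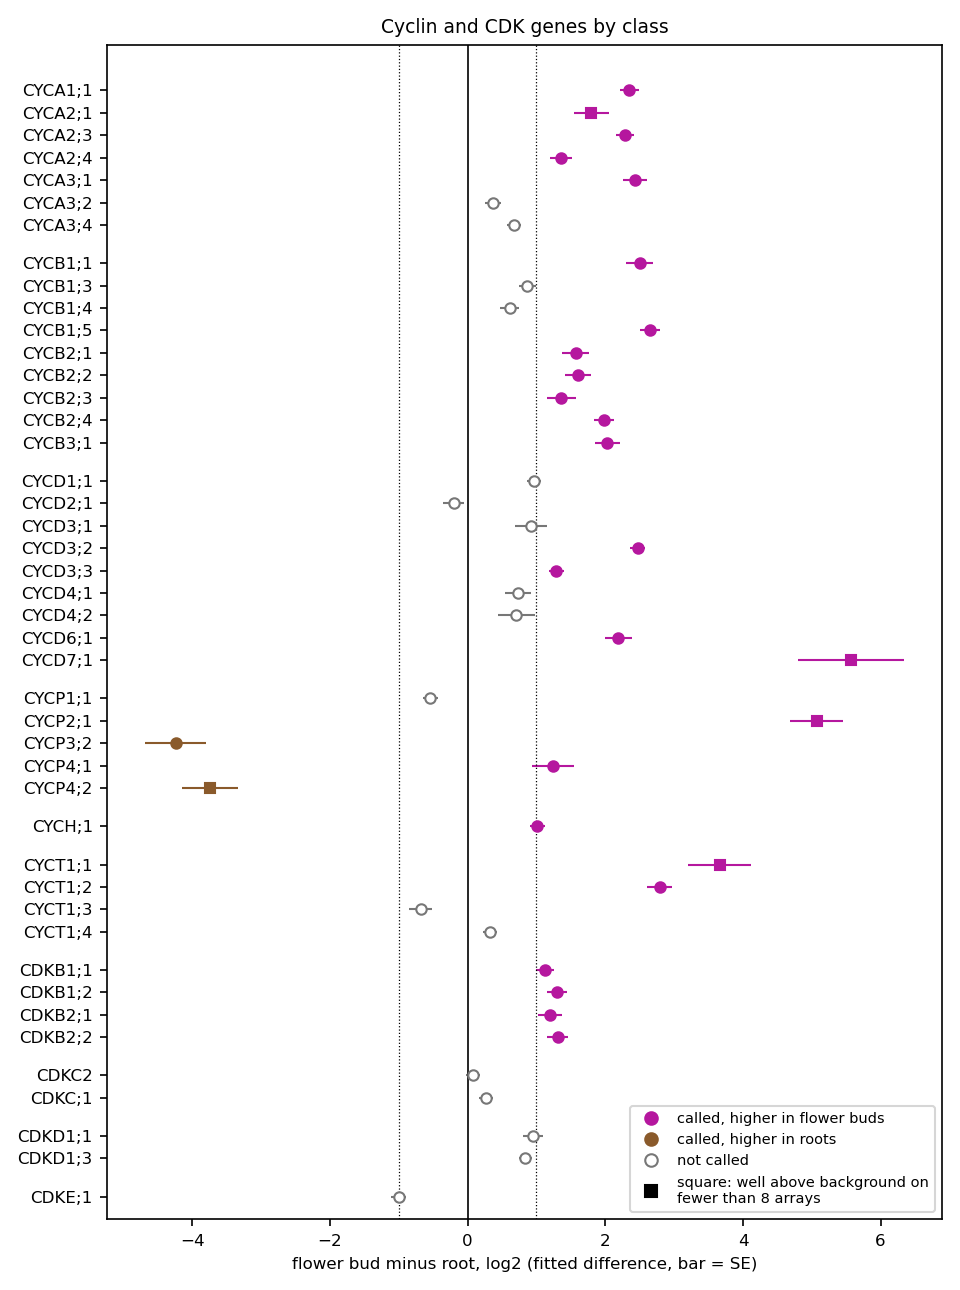
Fitted log2 difference, flower bud minus root, for each tested cyclin and CDK gene, grouped by class, with the standard error as a bar and dotted lines at a 2-fold difference. B-type CDKs lie close together between 1.12 and 1.31, A-type and B-type cyclins lie right of 0, and P-type cyclins lie on both sides, between -4.24 and 5.07.

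The B-type CDKs, which act from S phase to mitosis, were all called toward buds (100%, beside 30.2% of all genes). Their 4 differences were close to each other. CDKB1;1 (AT3G54180), which holds back endoreduplication together with an A2-type cyclin, read -0.22, 0.05, 0.18 and 0.04 in flower buds 1 to 4, against -0.95, -0.91, -1.28 and -1.26 in roots 1 to 4. CDKB1;2 read 0.47, 0.72, 0.86 and 0.81 in flower buds 1 to 4, against -0.33, -0.58, -0.88 and -0.57 in roots 1 to 4. Every bud array exceeded every root array for both, and the differences were 1.12 ± 0.13 (2.17-fold, adjusted p = 6.42e-05) for the first gene and 1.30 ± 0.14 (2.47-fold, adjusted p = 4.08e-05) for the second. Their 95% intervals were 0.82 to 1.42 and 0.98 to 1.63.

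The CDKB2 kinases peak at the passage from G2 phase into mitosis and are needed for an ordered shoot meristem. CDKB2;1 read 0.43, 0.59, 0.98 and 0.84 in flower buds 1 to 4, against -0.22, -0.38, -0.82 and -0.54 in roots 1 to 4. CDKB2;2 read -1.59, -1.60, -1.30 and -1.28 in flower buds 1 to 4, against -2.48, -2.97, -2.99 and -2.55 in roots 1 to 4. Again no root array reached the lowest bud array, at differences of 1.20 ± 0.17 (2.3-fold, adjusted p = 0.000203) and 1.31 ± 0.15 (2.48-fold, adjusted p = 6.81e-05). Centring on the array median took CDKB1;1 to 0.96, just short of 2-fold, and the other 3 kept their call under each alternative tried.

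Of 7 A-type cyclins tested, 5 were called toward buds and none toward roots, with a median difference of 1.80. The calls toward buds are 71.4%, beside 30.2% of all genes. CYCA1;1 (AT1G44110), a mitotic cyclin of the same subclass as the meiotic TAM, read 0.45, 0.59, 0.91 and 0.68 in flower buds 1 to 4, against -1.42, -1.63, -1.82 and -1.88 in roots 1 to 4. The tissues were far apart and the arrays of each were close, at a difference of 2.35 ± 0.14 (5.09-fold, adjusted p = 9.94e-07).

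The CYCA2 cyclins partner the CDKB1 kinases and take part in formative divisions and in the exit to endoreduplication. CYCA2;3 read -0.24, -0.28, 0.01 and 0.12 in flower buds 1 to 4, against -2.18, -2.39, -2.59 and -2.40 in roots 1 to 4. CYCA2;4 read -2.50, -2.53, -2.05 and -1.95 in flower buds 1 to 4, against -3.64, -3.75, -3.70 and -3.38 in roots 1 to 4. Both were higher on every bud array, by 2.29 ± 0.13 (4.9-fold, adjusted p = 7.23e-07) for the first and by 1.36 ± 0.16 (2.57-fold, adjusted p = 7.49e-05) for the second. CYCA2;1, known from vascular tissue, read -4.58, -4.40, -4.37 and -4.63 in flower buds 1 to 4, against -5.59, -6.30, -6.41 and -6.89 in roots 1 to 4. Its difference of 1.80 ± 0.25 (3.49-fold, adjusted p = 0.000177) rests in part on dim signal, since 2 of the 4 root arrays were well above background, and with normexp background correction, which models local background and adds an offset, it was 0.81 and not called.

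The CYCA3 subclass, cyclins of early S phase, was split. CYCA3;1 (AT5G43080) read -1.94, -1.75, -1.74 and -2.13 in flower buds 1 to 4, against -3.94, -4.20, -4.53 and -4.63 in roots 1 to 4, a difference of 2.43 ± 0.17 (5.4-fold, adjusted p = 2.81e-06) with no overlap. CYCA3;2, CYCA3;3 and CYCA3;4 follow each other on chromosome 1 with no other protein-coding gene between them in the TAIR10.1 gene table. CYCA3;2 read -0.07, 0.07, 0.19 and 0.22 in flower buds 1 to 4, against 0.00, -0.34, -0.42 and -0.32 in roots 1 to 4, in which root 1 lay among the bud values, and its difference of 0.37 ± 0.12 (adjusted p = 0.0195) was under 2-fold. A second probe of this gene gave -0.12, so even the sign of its difference depends on the probe. The 95% interval on the chosen probe was 0.09 to 0.65. CYCA3;4, whose protein is removed through the APC/C with CCS52A1, read -2.03, -1.91, -2.08 and -2.12 in flower buds 1 to 4, against -2.77, -2.53, -2.62 and -2.89 in roots 1 to 4, without overlap but at only 0.67 ± 0.10 (adjusted p = 0.000397), with a 95% interval of 0.43 to 0.91. The middle gene of the 3 was not well above background on any of the 8 arrays and was not tested.

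All 9 B-type cyclins, which bind CDKs at mitosis and are destroyed at its end, had higher mean signals in buds. All 9 passed the adjusted p alone, beside 82.3% of all genes, and 7 also met the 2-fold minimum and were called (77.8%, beside 30.2% of all genes). The median difference was 1.60. CYCB1;1 (AT4G37490), widely used as a marker of cells in G2 phase and mitosis, read -0.78, -0.70, -0.53 and -0.33 in flower buds 1 to 4, against -2.69, -2.81, -3.46 and -3.37 in roots 1 to 4. CYCB1;5 read 0.06, 0.19, 0.49 and 0.51 in flower buds 1 to 4, against -2.24, -2.31, -2.64 and -2.14 in roots 1 to 4. These were the largest differences among the B-type cyclins, 2.50 ± 0.20 (5.65-fold, adjusted p = 6.12e-06) for the first and 2.65 ± 0.15 (6.26-fold, adjusted p = 7.16e-07) for the second. Another probe of the second gene gave 3.06.

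Another 2 cyclins of the same subclass were tested and not called. CYCB1;3 read 0.22, 0.33, 0.50 and 0.63 in flower buds 1 to 4, against -0.28, -0.39, -0.66 and -0.47 in roots 1 to 4. CYCB1;4 read 0.29, 0.53, 0.49 and 0.85 in flower buds 1 to 4, against -0.06, 0.16, -0.17 and -0.19 in roots 1 to 4. Neither pair of tissues overlapped, and the differences were 0.87 ± 0.13 (adjusted p = 0.000233) and 0.61 ± 0.14 (adjusted p = 0.00347). The 95% intervals were 0.58 to 1.16 for the first, which reaches past 2-fold, and 0.29 to 0.93 for the second, which does not.

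The 4 CYCB2 cyclins, which promote the passage from G2 phase to mitosis, were all called toward buds (100%, beside 30.2% of all genes). CYCB2;1 read -2.35, -1.99, -2.08 and -1.61 in flower buds 1 to 4, against -3.35, -3.46, -4.00 and -3.51 in roots 1 to 4. CYCB2;2 read -0.59, -0.48, -0.27 and -0.14 in flower buds 1 to 4, against -1.51, -1.98, -2.39 and -1.99 in roots 1 to 4. In both, root 3 was the lowest array and bud 4 the highest. CYCB2;3 read -1.99, -2.10, -1.62 and -1.53 in flower buds 1 to 4, against -2.80, -3.19, -3.65 and -3.04 in roots 1 to 4. CYCB2;4 read -0.68, -0.65, -0.34 and -0.27 in flower buds 1 to 4, against -2.25, -2.53, -2.73 and -2.34 in roots 1 to 4. None of the 4 overlapped between tissues, and neither did 79.3% of all genes. The differences, in the order of these numbers, were 1.57 ± 0.20 (2.98-fold, adjusted p = 9.32e-05), 1.60 ± 0.19 (3.03-fold, adjusted p = 7.44e-05), 1.36 ± 0.21 (2.57-fold, adjusted p = 0.000325) and 1.98 ± 0.15 (3.94-fold, adjusted p = 3.66e-06). CYCB3;1, a mitotic cyclin that also has a described role in male meiosis, read -1.91, -1.90, -1.49 and -1.45 in flower buds 1 to 4, against -3.36, -3.82, -4.01 and -3.67 in roots 1 to 4, a difference of 2.03 ± 0.18 (4.08-fold, adjusted p = 9.51e-06).

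**Figure D2:**
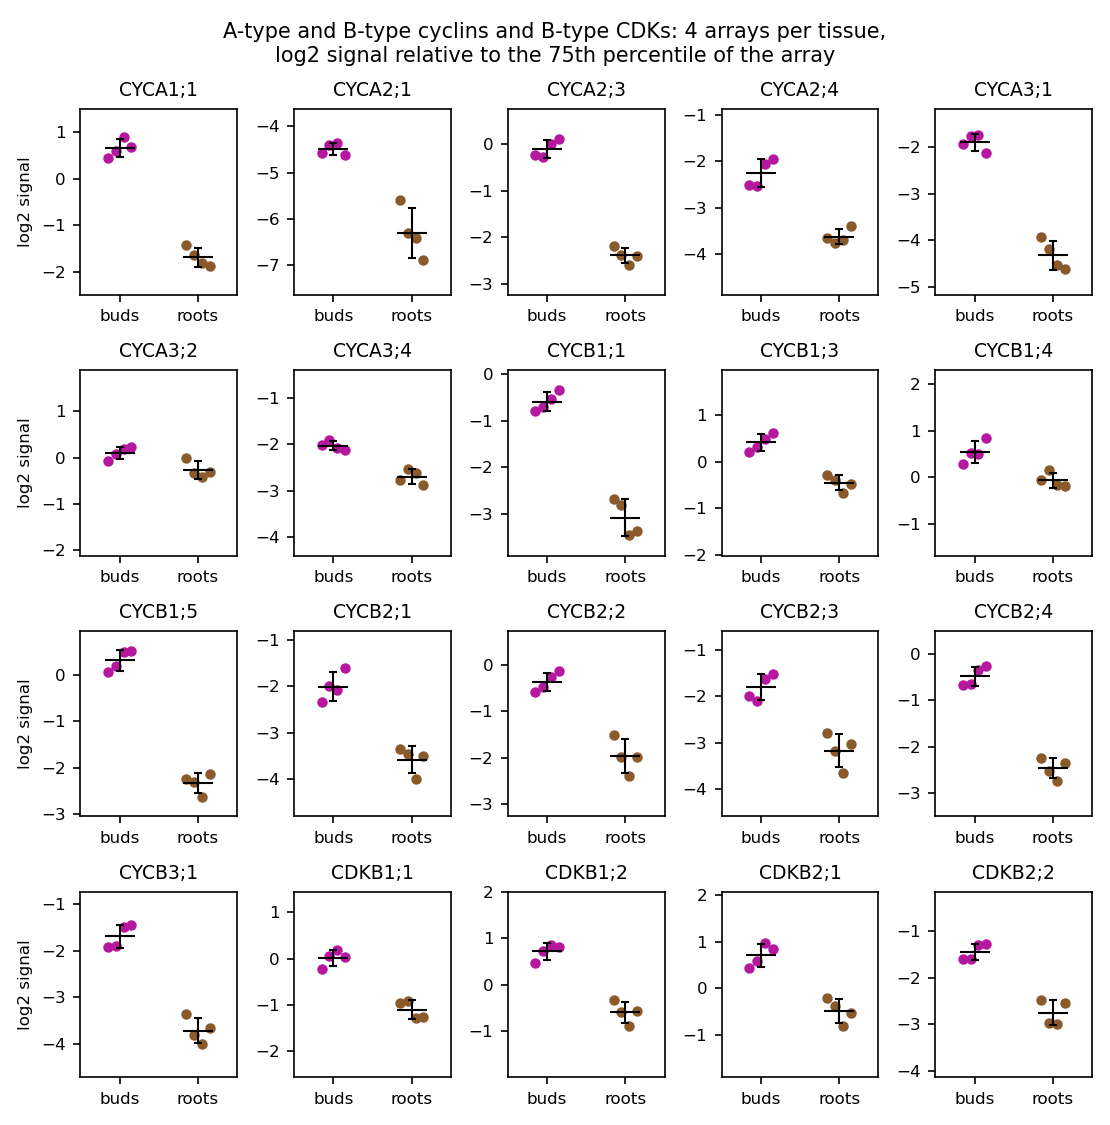
Log2 signal relative to the 75th percentile of the array for the 20 tested A-type cyclins, B-type cyclins and B-type CDKs, with flower buds left and roots right in each panel, 1 point per array (replicates 1 to 4 from left to right), a line at the mean and bars of 1 SD. Each panel spans at least 4 log2 units, and the tissues overlap for CYCA3;2 alone.

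Together, 16 of the 20 tested A-type cyclins, B-type cyclins and B-type CDKs were called toward buds and none toward roots, which is 80.0% beside the 30.2% of all genes. Their median difference was 1.47, and all 20 differences were positive under each scaling tried. All 20 passed the adjusted p alone, beside 82.3% of all genes, and 19 did not overlap between tissues, beside 79.3% of all genes. The 4 that missed the 2-fold minimum were CYCA3;2, CYCA3;4, CYCB1;3 and CYCB1;4, and all 4 passed it when the arrays were scaled on the reference genes.

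Members of a subclass were compared with each other by the tissue difference of their signal ratio within each array, which a shift of whole arrays cannot change, although quantile normalization can. This comparison was added after the values had been seen and covers the 33 pairs within a subclass among tested genes that the symbol rule chose. Relatives listed under another symbol were not paired. With 4 arrays per tissue an exact two-sided permutation test over the 70 arrangements cannot give a p under 0.0286. Of the 33 pairs, 20 reached it (adjusted p = 0.0471 over the 33 pairs, exact permutation test). Reaching it means that the ratios of the 2 tissues did not overlap, and the signals of 79.3% of all single genes did not overlap either. Pairs within a subclass share genes, and the share among other pairs of genes was not computed, so this count has no baseline. In the CYCA3 subclass, the difference of CYCA3;1 exceeded that of CYCA3;2 by 2.07 ± 0.16 and that of CYCA3;4 by 1.77 ± 0.18, and both reached the smallest p. The 2 tested genes of the row on chromosome 1, neither of them called, were 0.30 ± 0.17 apart (exact permutation p = 0.171, adjusted p = 0.226).

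In the CYCB1 subclass, the difference of CYCB1;1 exceeded that of CYCB1;3 by 1.63 ± 0.13 and that of CYCB1;4 by 1.89 ± 0.15, and the difference of CYCB1;5 exceeded them by 1.78 ± 0.08 and 2.04 ± 0.15. These 4 pairs reached the smallest p. Between the 2 called members the gap of 0.15 ± 0.19 was within the spread of the arrays (exact permutation p = 0.400, adjusted p = 0.440). Among the CYCB2 cyclins, the difference of CYCB2;4 exceeded those of the other members, in the order of their numbers, by 0.41 ± 0.13, 0.38 ± 0.10 and 0.62 ± 0.09, each at the smallest p. The paired B-type CDKs gave no such gap, at 0.18 ± 0.09 between the 2 CDKB1 kinases (exact permutation p = 0.114, adjusted p = 0.171) and 0.11 ± 0.13 between the 2 CDKB2 kinases (exact permutation p = 0.571, adjusted p = 0.608).

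D-type cyclins, which pass hormone and sugar signals to the cell cycle, were mixed: 4 of 9 were called toward buds (44.4%, beside 30.2% of all genes) and none toward roots, with a median difference of 0.96. Differences ran from -0.20 to 2.47 for the 8 genes above background in both tissues, and the ninth has only a bound. The CYCD3 cyclins respond to cytokinin and set cell number in leaves and petals. CYCD3;2 (AT5G67260) read 1.39, 1.59, 1.56 and 1.82 in flower buds 1 to 4, against -0.88, -0.80, -0.88 and -0.95 in roots 1 to 4. CYCD3;3 read 1.99, 2.15, 2.41 and 2.14 in flower buds 1 to 4, against 1.00, 0.84, 0.92 and 0.77 in roots 1 to 4. Both were well apart between tissues, by 2.47 ± 0.11 (5.54-fold, adjusted p = 1.27e-07) for the first and 1.29 ± 0.11 (2.44-fold, adjusted p = 8.6e-06) for the second. CYCD3;1 read 0.66, 0.73, 1.07 and 0.77 in flower buds 1 to 4, against 0.05, -0.01, 0.29 and -0.78 in roots 1 to 4. Root 4 lay far below the other roots, and the difference of 0.92 ± 0.23 (adjusted p = 0.00524, 95% interval 0.40 to 1.44) missed 2-fold. It was 1.05 without root 3, the highest root array, and so past the minimum. Leaving out root 4 instead lowers the difference, and the gene stayed uncalled. Scaling on the reference genes gave 1.65. The difference of CYCD3;2 exceeded that of CYCD3;3 by 1.18 ± 0.12 and that of CYCD3;1 by 1.55 ± 0.24 (adjusted p = 0.0471 each, exact permutation test), whereas the other two were 0.37 ± 0.20 apart (exact permutation p = 0.143, adjusted p = 0.205).

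CYCD6;1 (AT4G03270) is known from the root, where SHR and SCR switch it on for the asymmetric division that forms cortex and endodermis. It read -2.97, -2.67, -2.41 and -2.24 in flower buds 1 to 4, against -4.47, -4.58, -4.96 and -5.05 in roots 1 to 4. Every bud array was higher than every root array, by 2.19 ± 0.20 (4.57-fold, adjusted p = 1.19e-05), while SHR and SCR, at the differences given above, were not called.

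CYCD7;1 (AT5G02110), known for the last division of the stomatal lineage, read -2.29, -2.50, -3.47 and -5.48 in flower buds 1 to 4 and was not well above background on any root array. On the chosen probe it was at least 9.56-fold higher in buds, a bound of 3.26 on the log2 scale. A second probe, likewise not well above background on any root array, was dimmer in buds (mean -4.76 against -3.43). Its difference was 4.23, and no bound was computed for it. On the chosen probe the fitted difference fell below the bound with normexp, at 2.22, and was 6.25 without bud 4 against 5.57 with all arrays. Such a bound compares the bud mean with a floor averaged over the root arrays, where the floor is the dimmest probe that was well above background or this probe itself if it was brighter (adjusted p = 0.000183 in the fit). Bud 4 was the lowest bud array by a wide margin. The pollen gene VGD1 had 3.22, 2.56, 1.82 and 1.15 in flower buds 1 to 4, also highest in bud 1 and lowest in bud 4. The other markers did not share this order. The pollen gene AHA9 had 1.21, -0.26, 0.22 and -0.21, lowest in bud 2. The flower marker GRP17 had 5.36, 5.51, 4.87 and 5.15, highest in bud 2 and lowest in bud 3. The part of pollen content in these values was not tested.

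The other D-type cyclins were not called. Under scaling on the reference genes CYCD1;1, CYCD4;1 and CYCD4;2 passed 2-fold, at 1.69, 1.46 and 1.44. CYCD1;1, which acts at germination, read -0.40, -0.17, -0.18 and -0.31 in flower buds 1 to 4, against -1.33, -1.06, -1.18 and -1.33 in roots 1 to 4, without overlap and at 0.96 ± 0.10 (adjusted p = 3.31e-05), just under 2-fold, which it passed without bud 1 (1.0) or without root 2 (1.01). CYCD4;1, which sets the density of lateral root primordia, differed by 0.73 ± 0.19 (adjusted p = 0.00712), with a 95% interval of 0.29 to 1.17. CYCD4;2, known from stomatal lineage divisions, differed by 0.71 ± 0.27 (adjusted p = 0.0378), with root 2 among the bud values. CYCD2;1, a sugar-responsive cyclin active in the root meristem, read -2.47, -2.32, -2.57 and -2.27 in flower buds 1 to 4, against -1.91, -2.16, -2.58 and -2.19 in roots 1 to 4. Its tissues overlapped, and the difference of -0.20 ± 0.15 (adjusted p = 0.253) had a 95% interval of -0.55 to 0.15 and turned to 0.54 under scaling on the reference genes.

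P-type cyclins, which bind the main kinase CDKA;1, spread the widest of the classes: of 5 tested, 2 were called toward buds and 2 toward roots, from -4.24 to 5.07. The 4 calls are 80% of the 5, beside 55.0% of all genes. CYCP2;1 (AT3G21870), known from seedlings as a link between sugar supply and the start of division in the root tip, read -1.97, -1.95, -2.66 and -0.98 in flower buds 1 to 4, against -6.94, -6.82, -7.70 and -6.37 in roots 1 to 4. It was higher in buds by 5.07 ± 0.39 (33.5-fold, adjusted p = 4.65e-06), a value that rests in part on dim root signal, since 2 of 4 root arrays were well above background. CYCP3;2 (AT3G60550) read -6.30, -6.12, -4.93 and -7.29 in flower buds 1 to 4, against -2.02, -1.70, -1.69 and -2.27 in roots 1 to 4. It lay the other way without overlap, at -4.24 ± 0.44 (18.9-fold higher in roots, adjusted p = 3.15e-05), and was well above background on all 8 arrays. The bud signal was still low, at 30.67 to 153.7 before scaling, and with normexp the difference was -3.3.

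The CYCP4 cyclins did not move together. CYCP4;1 read -0.51, -0.32, -0.41 and -1.06 in flower buds 1 to 4, against -1.29, -1.48, -2.59 and -1.91 in roots 1 to 4. Its difference of 1.24 ± 0.30 (2.37-fold, adjusted p = 0.00456) was called toward buds, and without root 3, the lowest root array, it was 0.98 and fell short of 2-fold. CYCP4;2 was not well above background on any bud array and read -4.29, -5.20, -5.60 and -4.80 in roots 1 to 4. It was at least 8.53-fold higher in roots (adjusted p = 4.34e-05). With normexp background correction its fitted difference was -1.89 on the log2 scale, smaller than that bound. The tissue differences of this pair were 4.98 ± 0.45 apart in the fitted values (adjusted p = 0.0471, exact permutation test), with dim bud signal of the second gene in that value. CYCP4;3 was well above background on 3 root arrays and on no bud array, so it was not tested, and its bound was at least 3.07-fold higher in roots. CYCP1;1 read 0.46, 0.62, 0.84 and 0.63 in flower buds 1 to 4, against 1.32, 1.24, 1.07 and 1.08 in roots 1 to 4. Its difference of -0.54 ± 0.11 (adjusted p = 0.00185, 95% interval -0.79 to -0.29) was under 2-fold, and it was 0.19 under scaling on the reference genes.

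The kinases and cyclins of transcription and CDK activation (classes CDKC, CDKD, CDKE, CYCH and CYCT) gave 3 calls among 10 tested genes, all toward buds, which is 30.0% beside the 30.2% of all genes, and their median difference was 0.58. All 3 calls were cyclins. CDKC kinases phosphorylate RNA polymerase II with T-type cyclins. CDKC;1 differed by 0.27 ± 0.10 (adjusted p = 0.0284) and CDKC2 by 0.08 ± 0.10 (adjusted p = 0.475). Scaling on the reference genes took CDKC;1 to 1.0, where it was called toward buds. The tissues overlapped for CDKC2, whose 95% interval was -0.15 to 0.31 and whose difference turned to -0.08 when arrays were centred on their median.

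T-type cyclins diverged. CYCT1;2 (AT4G19560) read -2.45, -2.69, -2.47 and -2.41 in flower buds 1 to 4, against -4.80, -5.33, -5.35 and -5.67 in roots 1 to 4. No arrays overlapped, and the difference of 2.79 ± 0.18 (6.89-fold, adjusted p = 1.48e-06) was called. CYCT1;1 was not well above background on any root array, read -4.52, -6.03, -5.26 and -5.05 in flower buds 1 to 4 and was at least 2.79-fold higher in buds (adjusted p = 0.000105). With normexp background correction its fitted difference was 0.87 on the log2 scale, smaller than that bound and not called. CYCT1;3 read -1.83, -1.87, -1.62 and -2.17 in flower buds 1 to 4, against -1.03, -1.11, -1.03 and -1.61 in roots 1 to 4. Its difference was -0.68 ± 0.17 (adjusted p = 0.00575), root 4 lay apart from the other roots, and a second probe gave -0.73, while scaling on the reference genes gave 0.06. CYCT1;4, a described partner of the CDKC kinases, read 0.03, 0.00, 0.16 and 0.11 in flower buds 1 to 4, against -0.11, -0.40, -0.16 and -0.35 in roots 1 to 4, a difference of 0.33 ± 0.10 (adjusted p = 0.0122). Under scaling on the reference genes it was 1.06, past 2-fold. The tissue difference of CYCT1;2 exceeded that of CYCT1;4 by 2.46 ± 0.15 and that of CYCT1;3 by 3.46 ± 0.18 (adjusted p = 0.0471 each, exact permutation test).

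CYCH;1 (AT5G27620) is the cyclin of the CDKD kinases, which activate other CDKs and belong to transcription factor TFIIH. It read -1.50, -1.66, -1.38 and -1.66 in flower buds 1 to 4, against -2.42, -2.50, -2.57 and -2.73 in roots 1 to 4. The difference of 1.01 ± 0.11 (2.01-fold, adjusted p = 3.48e-05) was called at the edge of the 2-fold minimum. It was 0.85 to 0.95 with normexp, median centring or quantile normalization, and 0.95 to 0.99 without bud 1, bud 3 or root 4, each short of 2-fold. CDKD1;1 read -3.22, -3.10, -2.72 and -3.05 in flower buds 1 to 4, against -3.72, -3.98, -3.97 and -4.24 in roots 1 to 4. CDKD1;3 read -1.65, -1.67, -1.30 and -1.60 in flower buds 1 to 4, against -2.31, -2.41, -2.42 and -2.46 in roots 1 to 4. Neither overlapped, and at 0.95 ± 0.15 (adjusted p = 0.000363) and 0.84 ± 0.10 (adjusted p = 9.26e-05) both fell short of 2-fold in the main fit. The first passed it without bud 1 (1.02) or root 1 (1.04), and both passed it under scaling on the reference genes (1.69 and 1.58).

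CDKE;1 (AT5G63610), the Mediator kinase also known as HEN3 and CDK8 and required for floral organ identity, read 0.04, 0.16, 0.22 and 0.29 in flower buds 1 to 4, against 1.09, 1.05, 1.16 and 1.40 in roots 1 to 4. Every root array was higher than every bud array. The fitted difference of -1.0 ± 0.11 (adjusted p = 3.5e-05) fell just short of the 2-fold minimum before rounding. It passed that minimum when any one of bud 3, bud 4, root 1, root 2 or root 3 was left out (-1.0 to -1.04) and with median centring (-1.15). It stayed short with normexp and with quantile normalization, and scaling on the reference genes gave -0.27 (limma, adjusted p = 0.0548).

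**Figure D3:**
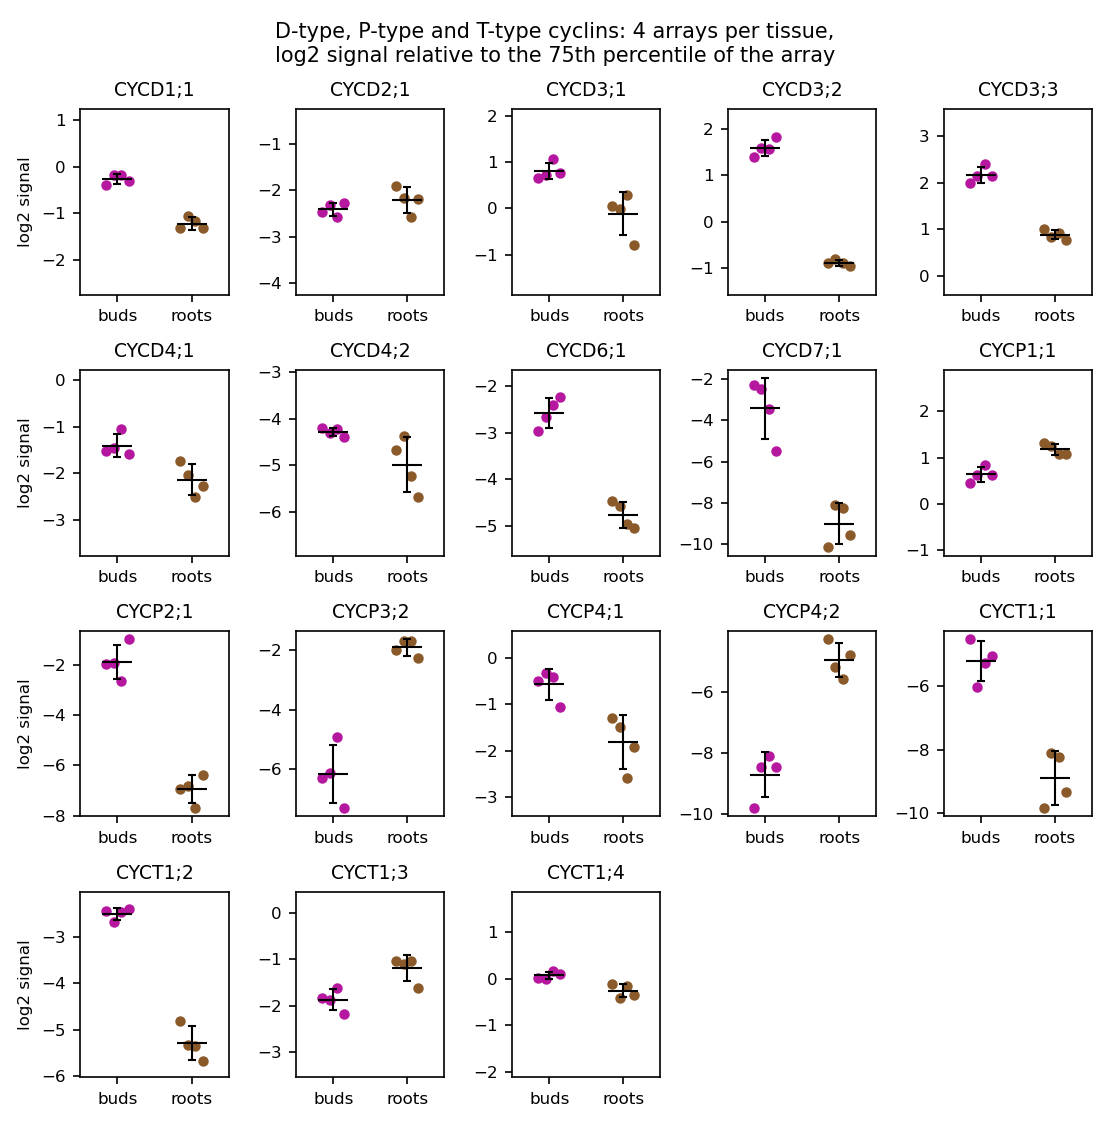
Log2 signal relative to the 75th percentile of the array for the tested D-type, P-type and T-type cyclins, with flower buds left and roots right in each panel, 1 point per array (replicates 1 to 4 from left to right), a line at the mean and bars of 1 SD. CYCD7;1, CYCP2;1 and CYCT1;1 stand high in buds, CYCP3;2 and CYCP4;2 stand high in roots, and CYCD2;1 and CYCD4;2 overlap. Values near -8 and below were not well above background, and of the CYCP2;1 root values, between -7.70 and -6.37, only 2 of 4 were.

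Other cyclins and CDKs, held in the gene table under another symbol or in classes outside the rule, gave 2 calls toward buds and 1 toward roots among 8 genes tested, which is 25% and 12.5% beside 30.2% and 24.8% of all genes. CDKA;1 (CDC2, AT3G48750), the main CDK of the plant cell cycle and the partner of D-type cyclins, read 0.07, 0.07, 0.10 and 0.23 in flower buds 1 to 4, against 0.30, 0.71, 0.63 and 0.43 in roots 1 to 4. Its difference of -0.40 ± 0.11 (adjusted p = 0.00953) was not called, and it was 0.33 under scaling on the reference genes. CDKF;1 (CAK1AT), which activates the CDKD kinases, had -0.86 ± 0.13 (adjusted p = 0.000263) and CDKD;2 (CAK4) had 0.27 ± 0.10 (adjusted p = 0.0393), neither called. The first was called toward roots with median centring (-1.01), and the second toward buds with scaling on the reference genes (1.0). CDKG1, a kinase tied to splicing and to chromosome pairing in meiosis, read -0.68, -0.65, -0.46 and -0.51 in flower buds 1 to 4, against 0.51, 0.29, 0.43 and 0.65 in roots 1 to 4 and was called toward roots at -1.04 ± 0.10 (2.06-fold, adjusted p = 2.51e-05). With normexp it was -0.97, and with scaling on the reference genes -0.31, neither past 2-fold. CYCB1;2 (CYC1BAT), a mitotic cyclin of the CYCB1 subclass, was called toward buds at 2.03 ± 0.16 (4.09-fold, adjusted p = 4.55e-06). CYCJ18 was called toward buds at 1.89 ± 0.18 (adjusted p = 1.89e-05), with 2 of 4 root arrays well above background, and at 0.94 with normexp it was not called. CYCA2;2 (CYC3B) had 0.66 ± 0.13 and CYCT1;5 had 0.07 ± 0.12, neither called, although the first was called with scaling on the reference genes (1.4).

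CDK inhibitors of the KRP and SIAMESE families went both ways: of 10 tested, 4 were called toward buds and 3 toward roots, which is 40% and 30% beside 30.2% and 24.8% of all genes. KRP7, which the F-box protein FBL17 removes during pollen development, read -1.06, -0.97, -1.18 and -1.02 in flower buds 1 to 4, against -3.06, -3.10, -3.25 and -3.21 in roots 1 to 4, a difference of 2.1 ± 0.09 (4.28-fold, adjusted p = 1.17e-07). KRP3 followed at 1.70 ± 0.14 (3.25-fold, adjusted p = 6.26e-06), and SMR1 and KRP2 at 1.59 ± 0.27 and 1.05 ± 0.16. KRP2 was 0.90 with median centring, short of 2-fold. SIM, which turns cells from division to endoreduplication in leaf hairs, read -0.14, 0.05, -0.34 and -0.27 in flower buds 1 to 4, against 2.22, 2.37, 1.94 and 2.52 in roots 1 to 4. It was 5.42-fold higher in roots (-2.44 ± 0.15, adjusted p = 1.04e-06), on every root array. SMR7, which responds to DNA damage, was 3.56-fold higher in roots (-1.83 ± 0.10, adjusted p = 4.65e-07), and KRP1 was called at -1.35 ± 0.21, but not under scaling on the reference genes (-0.61). KRP5, KRP6 and SMR4 were not called, between -0.31 and -0.09, and all 3 turned positive under that scaling.

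The retinoblastoma and E2F list, through which D-type cyclins act, held 8 tested genes with 3 calls toward buds, or 37.5% beside 30.2% of all genes, and none toward roots. The retinoblastoma gene RBR1 differed by 1.39 ± 0.09 (2.62-fold, adjusted p = 2.18e-06), and the atypical E2F repressors DEL3 and DEL1 by 1.43 ± 0.12 (2.7-fold, adjusted p = 9.03e-06) and 1.38 ± 0.22. Scaling on the reference genes added E2FB, E2FC, DPB and DEL2, at 1.18 to 1.5. Among 3 CDK partners and modifiers, the inhibitory kinase WEE1 was called toward buds at 1.51 ± 0.15 (2.85-fold, adjusted p = 1.9e-05), and not called with normexp (0.94). The CDK-binding CKS1 and CKS2 were not called, so the calls toward buds were 33.3% of this list, beside 30.2% of all genes.

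Of 5 activators of the APC/C, the ubiquitin ligase that ends mitosis by destroying mitotic cyclins, 3 were called toward buds. That is 60%, beside 30.2% of all genes. CDC20.1 differed by 2.30 ± 0.12 (4.92-fold, adjusted p = 4.23e-07), CDC20.2 by 1.98 ± 0.17 and CCS52B by 1.97 ± 0.14. CCS52A1 (-0.35 ± 0.20) and CCS52A2 (-0.17 ± 0.08), which promote the exit from division, were not called, and under scaling on the reference genes they were at 0.38 and 0.56. Among 4 MYB3R factors, which control genes of G2 phase and mitosis, the activator MYB3R4 was called, at 1.86 ± 0.10 (3.63-fold, adjusted p = 5.2e-07). This 1 call is 25% of the list, beside 30.2% of all genes. MYB3R1 and MYB3R3 passed 2-fold only under scaling on the reference genes (1.33 and 1.02). All 7 genes of mitosis and cytokinesis were called toward buds (100%, beside 30.2% of all genes), with a median of 2.07. Of these, AUR1 lay at 0.99 with median centring. The largest were PLE, a microtubule bundling protein of the phragmoplast, at 2.73 ± 0.16 (6.63-fold, adjusted p = 9.12e-07), and HIK, a kinesin of cytokinesis, at 2.57 ± 0.16 (5.95-fold, adjusted p = 1.22e-06).

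**Figure D4:**
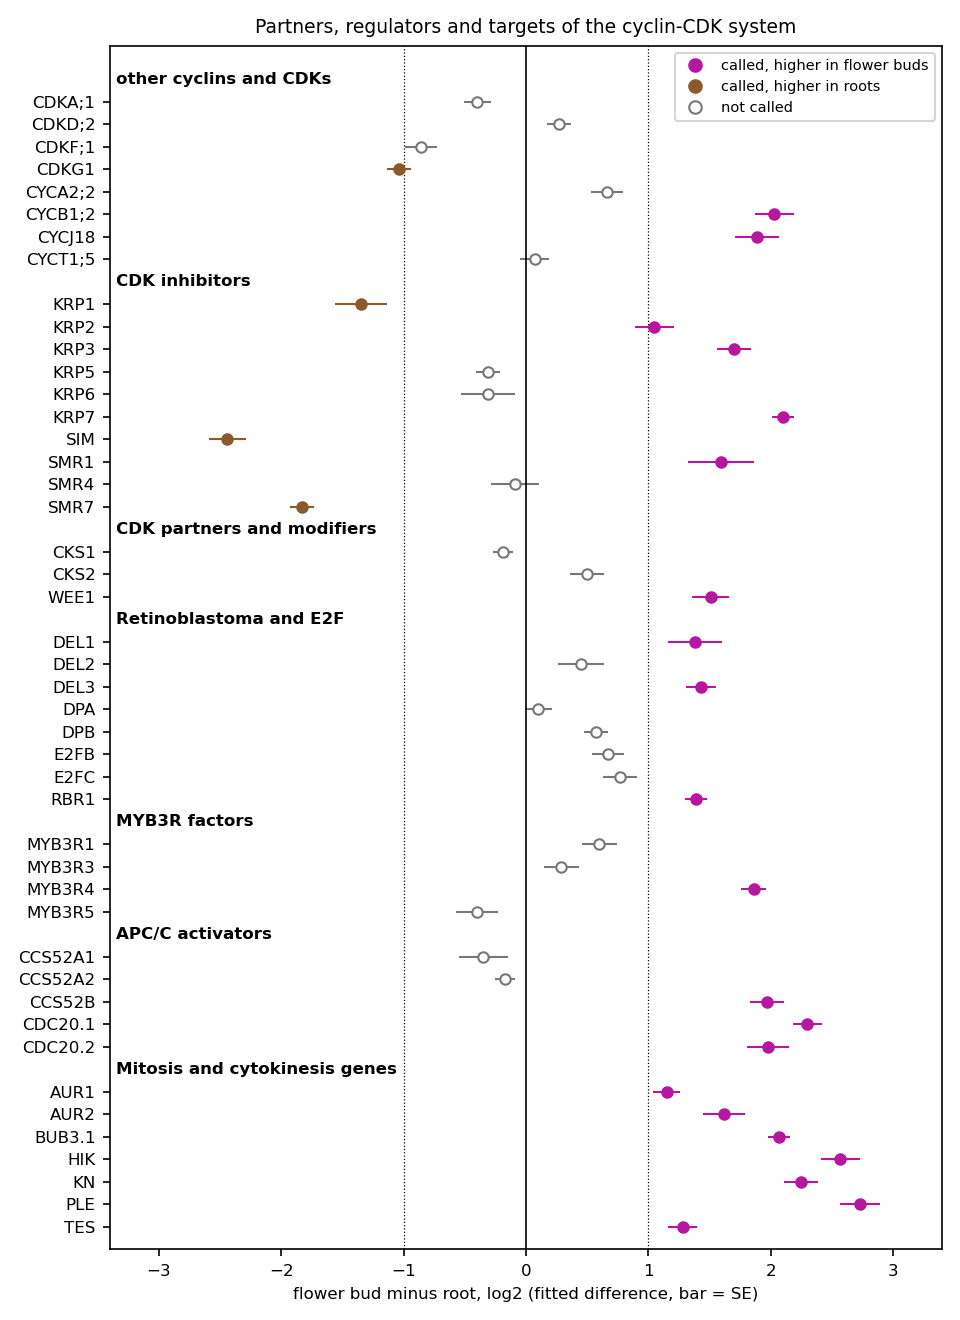
Fitted log2 difference, flower bud minus root, with the standard error as a bar, for 45 genes that bind, inhibit or act beside cyclins and CDKs, in lists by role, with dotted lines at a 2-fold difference. The mitosis and cytokinesis genes all lie right of 1, whereas CDK inhibitors lie between -2.44 and about 2.1.

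The mitotic genes also differed between arrays of 1 tissue. As the median deviation from the tissue mean, the 20 A-type cyclins, B-type cyclins and B-type CDKs lay at -0.21, -0.10, 0.14 and 0.20 in flower buds 1 to 4 and at 0.26, 0.02, -0.22 and -0.02 in roots 1 to 4. The 7 genes of mitosis and cytokinesis lay at -0.18, -0.06, 0.12 and 0.17 in the buds and at 0.19, 0.05, -0.19 and -0.06 in the roots. Buds 3 and 4 and root 1 were thus above their tissue mean in both lists, and root 3 was below it. This was not particular to these lists. The 5 APC/C activators lay at -0.17, -0.09, 0.08 and 0.18 in the buds and at 0.26, 0.02, -0.19 and -0.12 in the roots. The retinoblastoma and E2F list lay above the mean on bud 3 (0.19) but below it on bud 4 (-0.13). Over all genes tested the same median stayed between -0.05 and 0.03 on every array. The 10 CDK inhibitors lay the other way in the buds, at 0.09, 0.09, -0.09 and -0.07, as did the 6 flower markers, at 0.19, 0.07, -0.15 and -0.10. The part of tissue make-up in these deviations was not tested. They were smaller than the median tissue difference of 1.47 in the mitotic genes.

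**Figure D5:**
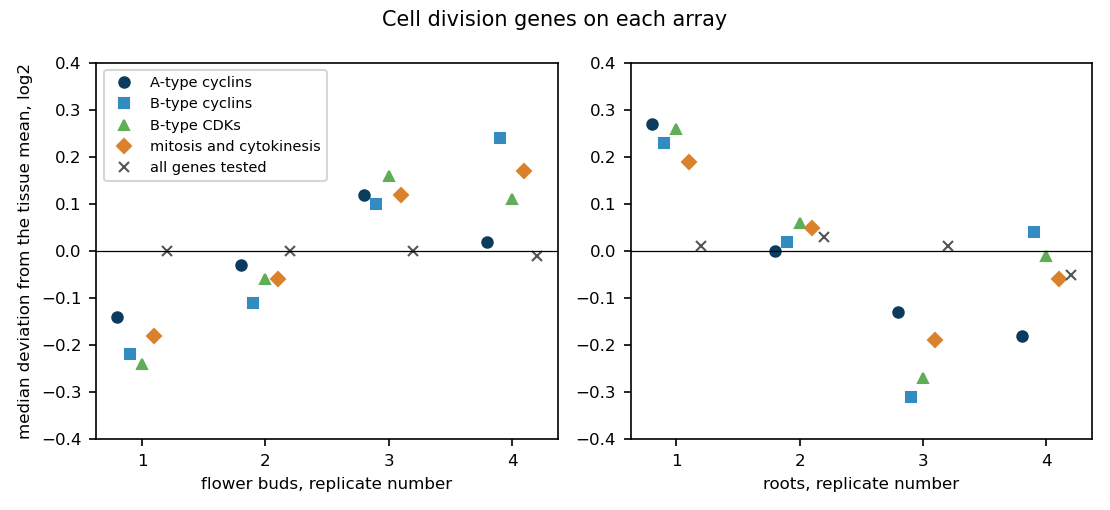
Median deviation from the tissue mean on the log2 scale, by array, for A-type cyclins, B-type cyclins, B-type CDKs, mitosis and cytokinesis genes and all genes tested, with flower buds left and roots right. The division classes lie below 0 on bud 1 and above 0 on root 1, and the marks of all genes stay near 0 on each array.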

How the data were processed

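Total RNA was measured on 8 one-colour Agilent arrays, 4 of flower buds and 4 of roots. Per the file headers, Feature Extraction 10.10.1.1 subtracted background within each array, and the authors deposited the intensity of each spot without scaling between arrays, with flags for spots well above background, saturated or outlying. The value table deposited beside them is in log2 units, and how it was made is not stated in the sources available. It followed the scaled log2 signal of the scanner files centred per probe, so scale and direction are known. Of 43603 probes, 34285 were matched to a locus through RefSeq accessions (TAIR10.1 gene table).

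Control and outlier spots were left out, 408 repeated lines were dropped, and log2 signals were averaged per probe before the 75th percentile of the array was subtracted. A probe counted as well above background on an array if over 50% of its spots were. The tissue difference was fitted by lmFit and eBayes (limma 3.58.1, R 4.3.3) without other factors, tested on simulated data first, and 74 loci with a missing value were dropped. A bound replaces the fold where a tissue had no array well above background. Pairs within a subclass were compared by exact permutation tests.

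All 8 arrays lay on 1 slide, roots in row 1 and buds in row 2, so row and tissue cannot be told apart. The number of arrays limits the precision. The labels tie same-numbered samples by the number alone. Correlations of their deviations were -0.267 to 0.100, and those of unlike numbers were -0.172 to 0.211. These values cannot show whether same-numbered samples came from the same plants or were handled together. Members, lists and tests were chosen with earlier results of these data known. All members may be named, and of each companion list the 2 called genes with the largest difference each way and the kinases outside the rule. Other companion genes were named after their values were seen. KRP4, SMR2, SMR3, SMR5, SMR6, SMR8 and E2FA were not used here. Alternatives were normexp (offset 50, on median instead of the planned mean spot signal), other scalings, filters, probes, the deposited table, a replicate block, no fold minimum and leaving out each array. Promoter and protein motifs were not analysed here.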

Additional observations from a re-analysis of the deposited data

Results flagged for a closer look

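CYCT1;3 in root replicate 4 stood apart from the other root arrays. Its signal was -1.61 there, against -1.11 to -1.03 on the other 3, and the gap made up 0.872 of the range of the group, above Dixon's 95% limit for groups of 4. It was 1 of 88 groups of 4 arrays looked at among the tested cyclins and CDKs, and chance marks about 1 in 20 such groups.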

How the results depend on the processing

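Cyclins and CDKs called numbered 27, and 22 to 29 under the alternatives other than scaling on the reference genes (39) and the adjusted p alone (42). Calls toward roots numbered 2, and 1 when only probes well above background on all 8 arrays were used, 5 by the adjusted p alone and 4 without root 3. Leaving out each array in turn gave 26 to 29 calls in all, 24 to 26 toward buds and 2 to 4 toward roots. It gave 16 among A-type cyclins, B-type cyclins and B-type CDKs, 12041 to 12365 over all genes, 6565 to 6892 of these toward buds, and 23 to 25 among companion genes. All genes higher in buds numbered 6679, but 10261 with scaling on the reference genes and 3973 with probes above background on all arrays, where 17900 genes were tested. The share of calls toward buds was 54.9%, against 72.9% with the reference genes, 50.5% with median centring, 49.7% with normexp, 49.6% without the filter and 47.3% with all 8 arrays above background. The sign turned for CDKC2 with median centring (-0.08), and for CYCD2;1 (0.54), CYCP1;1 (0.19) and CYCT1;3 (0.06) with the reference genes, all 4 uncalled. These turns follow from the shift that the scaling gives every gene. The replicate block left 27 members called and gave 12138 calls over all genes, and not every sample correlated best with its own number. Normexp moved called differences by over 1.5 times in fold, to 1.81 for CYCA3;1, 1.55 for CYCD6;1, 3.06 for CYCP2;1, -3.3 for CYCP3;2, -1.89 for CYCP4;2 and 1.79 for CYCT1;2, all still called, and the cause was not tested. Dim signal limits CYCA2;1, CYCP2;1, CYCT1;1, CYCD7;1 and CYCP4;2, whose probes were not well above background on all 8 arrays.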
